A study of Homo sapiens with 36 samples.

Results

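The nuclear-encoded subunits of respiratory chain complexes I to IV were followed across 3 B lymphoblastoid leukaemic cell lines and 4 treatments. The members were taken by gene symbol from the deposited gene table: the NDUFA, NDUFB, NDUFC, NDUFS and NDUFV subunits, SDHA to SDHD, the UQCR subunits, CYC1 and the ubiquitous COX subunits. This gave 60 of 37549 listed genes, of which 36 belong to complex I, 4 to complex II, 9 to complex III and 11 to complex IV. NDUFA4 was placed with complex IV, of which it is a subunit despite its name. All 60 passed the filter on low counts in every line, and the lowest count of a member in any library was 127.

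The study examined how drugs used against chronic lymphocytic leukaemia change gene expression in lymphoid cells. MEC1 carries mutated p53, whereas JVM2 and EHEB are p53 wild-type, and each line is a single established culture model. Cells received the vehicle DMSO, the purine analogue fludarabine at 50 µM, the BTK inhibitor ibrutinib at 5 µM or the PI3K delta inhibitor idelalisib at 10 µM. MEC1 was exposed for 48 h, JVM2 for 72 h and EHEB for 96 h, vehicle cultures included. Each of the 12 groups held 3 libraries of rRNA-depleted total RNA. The lines were thus exposed for unequal times, and a difference between lines cannot be told apart from one of time. Libraries of a group are called 1 to 3 in the order of the numbers in their labels. The libraries of both kinase inhibitors carry numbers in a series apart from those of DMSO and fludarabine, without DMSO libraries of their own, so that series and those drugs cannot be told apart against DMSO. The methods describe results in general as coming from independent experiments without naming the RNA libraries, and where libraries of a group shared a culture, p-values would measure only the spread between these libraries.

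The respiratory chain sits in the inner mitochondrial membrane and passes electrons from NADH and succinate to oxygen while pumping protons. Complex I takes electrons from NADH, complex II from succinate, complex III hands them from ubiquinol to cytochrome c, and complex IV reduces oxygen. Complexes I, III and IV are mosaics, in which some core subunits are encoded by mitochondrial DNA and the other subunits, core and accessory, in the nucleus, whereas complex II is wholly nuclear. Activated, dividing B cells raise their respiration.

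Libraries held 26590705 to 53538925 counts, and the 60 members together took 0.298% to 0.430% of them. Levels are given in CPM, counts scaled to a common library total, after adjustment by the trimmed mean of M values (TMM), which aligns the bulk of genes between libraries. The 7 B cell markers were present in every library, the lowest being CD79B at 26.7 CPM. Of 16 markers of T cells, monocytes, erythroid and epithelial cells, CDH1 had a median of 33.6 CPM in MEC1 and reached 77.0 CPM in its highest library, and KRT18 and KRT8 had medians of 15.9 and 12.1 CPM in JVM2. In each line the medians of all others, and of these 3 in the lines not named with them, were at most 4.32 CPM. In bulk samples, fewer cells of a type and less RNA per cell cannot be told apart.

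In DMSO, COX8A, a small subunit of complex IV, had the highest level of all members per kilobase of the canonical transcript in every line, at 370.2 ± 27.5 CPM per kilobase in MEC1, 312 ± 18.3 in JVM2 and 275 ± 9.63 in EHEB (SD, n = 3). Within complex III, UQCRH, the hinge protein beside cytochrome c1, led on the same scale with 359.6 ± 16.8, 193 ± 7.86 and 224 ± 2.99 CPM per kilobase in MEC1, JVM2 and EHEB, and UQCRB was lowest with 5.38 ± 0.413, 9.12 ± 0.963 and 8.85 ± 0.317. Within complex I the order ran from NDUFA1, at 124 ± 9.36, 132 ± 3.77 and 113 ± 2.12 CPM per kilobase, down to NDUFV3 at 4.58 ± 0.116, 5.04 ± 0.248 and 4.68 ± 0.578. The subunits of complex II lay closer together. Its highest gene was SDHA in MEC1 (60.7 ± 1.86 CPM per kilobase) and SDHC in JVM2 and EHEB (87.2 ± 12.5 and 84.6 ± 8.39), and the lowest was SDHD in MEC1 (39.4 ± 1.64), SDHB in JVM2 (44.9 ± 6.07) and SDHA in EHEB (52.6 ± 1.72). SDHA and SDHC differed in MEC1 by less than their SDs. COX7B was lowest in complex IV, with 19.2 ± 8.10, 20.9 ± 0.779 and 13.3 ± 7.17 CPM per kilobase. UQCRB, NDUFV3 and COX7B have canonical transcripts of 8459, 5725 and 2444 nt, and division by a long transcript lowers this value. In CPM, UQCRB had means of 45.5, 77.1 and 74.9 in MEC1, JVM2 and EHEB, and UQCR10 lay below it in each. When all exons of a gene were merged for its length, NDUFV3 was no longer the lowest of complex I in any line and SDHA was the lowest of complex II in MEC1, while the leading genes of complexes I, III and IV stayed the same.

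The first question was how the members differed between untreated lines. A gene was called when the Benjamini-Hochberg adjusted p of edgeR's quasi-likelihood test over all genes tested was under 0.05. Between MEC1 and JVM2 in DMSO, 22 members were higher in MEC1 and 9 lower, against 30.1% of all genes tested higher and 33.7% lower. Between MEC1 and EHEB the numbers were 17 higher and 12 lower, against 31.6% and 35.8%. Between EHEB and JVM2 they were 18 higher and 11 lower, against 29.9% and 29.6%, and the 11 became 7 without DMSO library 3 of EHEB. The summed level of all members differed by less than its spread, with 3906 ± 184.1 CPM for MEC1, 3843 ± 104 for JVM2 and 3754 ± 99.5 for EHEB, and the ranges of the 3 lines overlapped, although MEC1 lay above both other lines without overlap when libraries were scaled by their totals.

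Single subunits set the lines apart in DMSO. NDUFA8, an accessory subunit of complex I, was at 50.3, 44.1 and 46.9 CPM in MEC1, 21.5, 20.5 and 22.5 in JVM2 and 24.7, 25.7 and 24.9 in EHEB. Every MEC1 library lay above every library of the other lines, and the log2 fold change was 1.12 ± 0.071 (SE, edgeR adjusted p = 1.10e-06) against JVM2 and 0.88 ± 0.071 (SE, edgeR adjusted p = 4.52e-06) against EHEB. Within complex III, MEC1 was higher in UQCRQ (log2 fold change 0.90 against JVM2 and 0.87 against EHEB), UQCRH (0.89 and 0.65), the core protein UQCRC1 (0.62 and 0.86) and CYC1, the haem-bearing cytochrome c1 (0.74 and 0.73), but lower in UQCRB (-0.78 and -0.75). UQCRC2 was also lower in MEC1, at a mean of 223 CPM against 337 in JVM2 and 263 in EHEB. SDHD, a membrane anchor of complex II, was lower in MEC1 than in JVM2, with a log2 fold change of -0.95 ± 0.24 (SE, edgeR adjusted p = 0.00658). EHEB exceeded JVM2 in NDUFB2, NDUFB3 and NDUFB6, accessory subunits of the membrane arm, by 0.93, 0.81 and 0.80 on the log2 scale, and lay below it in NDUFB5, NDUFC1 and NDUFB4 with -0.83, -0.77 and -0.65. NDUFB4 was also lower in MEC1 than in JVM2, with -0.92.

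The drugs were then set against DMSO within each line. Of the 60 members, 58 were called in 1 or more of the 9 comparisons, 14 of them only higher, 19 only lower and 25 in both directions. Of all genes tested in every line, 89.5% were called in 1 or more, 27.5% only higher, 24.9% only lower and 37% in both directions. The accessory subunits NDUFB10 and NDUFC2 were called in none. The comparisons within a line share their DMSO libraries. The heat map of members by drug and line shows the directions.

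**Figure D1:**
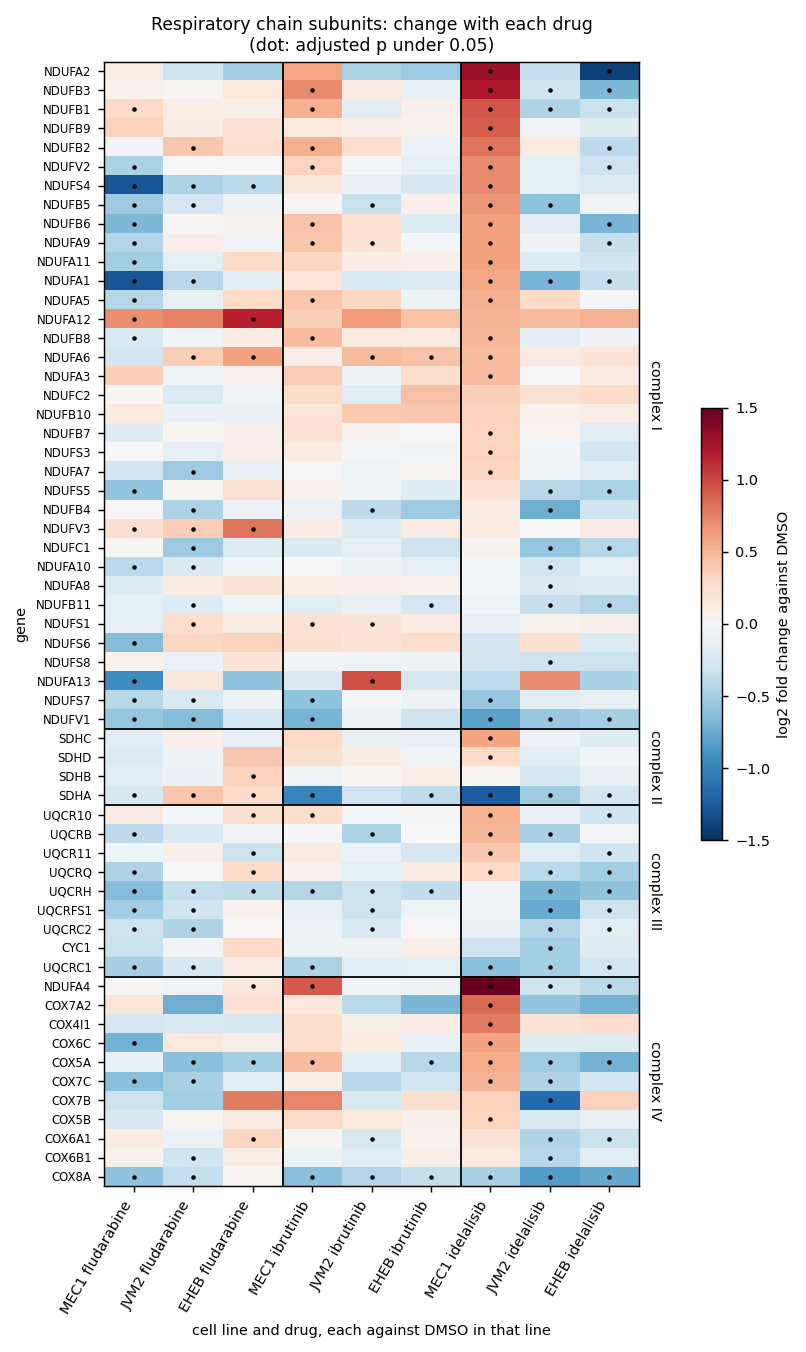
Log2 fold change of 59 of the 60 subunits (rows, grouped by complex and ordered within it by the change in MEC1 with idelalisib) for each drug against DMSO in each line (columns); red is higher, blue lower, and a dot marks an adjusted p under 0.05 in edgeR. With idelalisib, the MEC1 column holds 32 calls higher and 5 lower, the JVM2 column 27 lower and the EHEB column 24 lower; COX8A and UQCRH are blue with dots in 8 of 9 columns.

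With idelalisib more members rose than fell in MEC1, and more fell than rose in the other lines. In MEC1, 32 members rose and 6 fell, against 27.6% of all genes tested that rose and 27.4% that fell, and the median log2 fold change of the members was 0.34 against 0.08 for all genes. In JVM2 no member rose and 27 fell, against 21.6% and 22.6% of all genes, with a median of -0.22 against 0.03. In EHEB no member rose and 25 fell, against 15.1% and 18.2%, with a median of -0.28 against 0.01. At an unadjusted p under 0.05, 1 member was higher in JVM2 and none in EHEB, and DESeq2 called 1 and 0. When libraries were scaled by their totals alone, which moved the median of all genes by -0.17 to 0.25 depending on the comparison, the members' medians kept these signs, with 0.24 for MEC1, -0.12 for JVM2 and -0.18 for EHEB. The counts then were 26 higher and 11 lower for MEC1, 3 higher and 23 lower for JVM2, and 2 higher and 18 lower for EHEB, and the stricter filter called 1 member higher in EHEB.

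The effect of idelalisib itself differed between lines. The line by drug contrast, fitted over all 36 libraries, was called for 38 members between MEC1 and JVM2, against 32.3% of all genes in either direction. The signed log2 fold change was higher in MEC1 for 33 of these members and lower for 5. Between MEC1 and EHEB it was called for 33 members, 29 of them with the higher log2 fold change in MEC1, against 35.3%. Between EHEB and JVM2 it was called for 7, against 19.2%. Called in opposite directions were 9 members in MEC1 and JVM2 and 13 in MEC1 and EHEB, against 8.94% and 8.45% of all genes tested in both lines, and for every one of these members the contrast was called too. With fludarabine 1 and 2 members were called in opposite directions in the same pairs, against 4.76% and 5.46%, and with ibrutinib none and 1, against 3.95% and 2.95%. Between EHEB and JVM2 no member was, against 3.11% of all genes with fludarabine, 1.77% with ibrutinib and 3.56% with idelalisib. With idelalisib COX5A, NDUFA1, NDUFA4, NDUFB1, NDUFB3 and UQCRQ were in both sets, of which COX5A and NDUFA4 kept all 3 calls under every alternative and left-out library. The other 4 each lost 1 call with library totals and without some single libraries. These were NDUFA1 in EHEB (-0.34, then -0.33 to -0.24, without DMSO library 1 or 3 or idelalisib library 2 or 3), NDUFB1 in EHEB (-0.33, then -0.34 to -0.22, also without the filter, in the fit of 6 libraries, and without DMSO library 1, 2 or 3 or idelalisib library 2 or 3), NDUFB3 in JVM2 (-0.30, then -0.29 to -0.20, without DMSO library 2 or 3 or idelalisib library 2 or 3) and UQCRQ in MEC1 (0.30, then 0.20 to 0.27, without DMSO library 2 or idelalisib library 1 or 3).

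**Figure D2:**
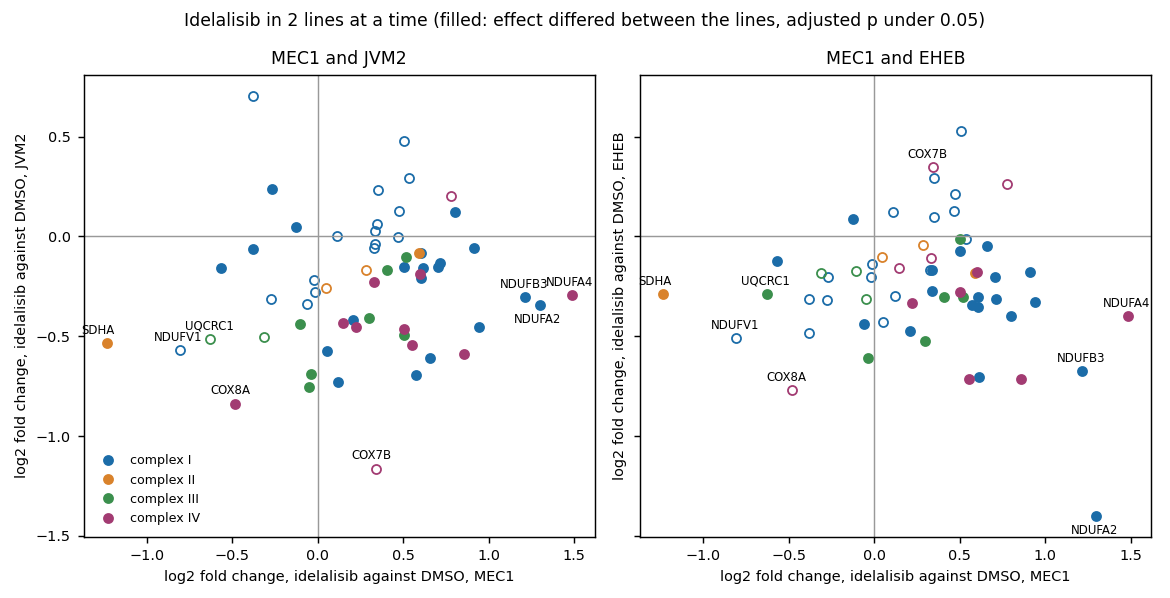
Log2 fold change of each of the 60 subunits with idelalisib against DMSO in MEC1 (horizontal axis) and in JVM2 or EHEB (vertical axis), coloured by complex; filled points are subunits whose effect differed between the 2 lines (edgeR adjusted p under 0.05). Most points lie in the lower right, where MEC1 is above 0 and the other line below it: 34 members for JVM2 and 35 for EHEB.

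In complex IV, 7 of 11 subunits rose in MEC1 with idelalisib and 1 fell, whereas 7 fell in JVM2 and 4 in EHEB. Of all genes tested with idelalisib, 27.6% rose and 27.4% fell in MEC1, and 22.6% fell in JVM2 and 18.2% in EHEB. NDUFA4, a small subunit bound at the edge of the complex, was at 107, 98.0 and 91.0 CPM in MEC1 with DMSO and 278, 223 and 293 with idelalisib. It was at 79.2, 79.5 and 84.7 CPM in JVM2 with DMSO and 60.6, 68.2 and 70.2 with idelalisib, and at 114, 102 and 105 and 84.7, 79.9 and 80.8 in EHEB. Groups did not overlap in any line, higher with the drug in MEC1 and lower in the others. The log2 fold change was 1.49 ± 0.10 (SE, edgeR adjusted p = 3.58e-07) in MEC1, -0.30 ± 0.06 (SE, edgeR adjusted p = 0.00214) in JVM2 and -0.40 ± 0.06 (SE, edgeR adjusted p = 3.99e-04) in EHEB. The difference between MEC1 and JVM2 was 1.71 ± 0.11 (SE, edgeR adjusted p = 6.27e-13) and that between MEC1 and EHEB 1.81 ± 0.11 (SE, edgeR adjusted p = 1.68e-13).

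COX5A, a subunit on the matrix side of complex IV, split the same way. Its levels were 78.2, 79.1 and 77.1 CPM with DMSO and 105, 100.1 and 124 with idelalisib in MEC1, a rise of 0.55 ± 0.08 (SE, edgeR adjusted p = 1.29e-04) on the log2 scale. In JVM2 they were 76.1, 88.5 and 79.7 and 54.6, 57.6 and 56.1 CPM, with -0.54 ± 0.068 (SE, edgeR adjusted p = 8.26e-05). In EHEB they were 109, 93.9 and 96.3 and 63.0, 60.5 and 60.1 CPM, with -0.71 ± 0.068 (SE, edgeR adjusted p = 1.49e-05). COX7B, a small subunit with few counts per kilobase, had the largest fall in JVM2 at -1.16 ± 0.36 (SE, edgeR adjusted p = 0.0213). That call was lost in the joint fit of 36 libraries (edgeR adjusted p = 0.0689) and without DMSO library 2 or idelalisib library 2 or 3 of JVM2.

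In complex I, 19 of 36 subunits rose in MEC1 with idelalisib and 3 fell, while 12 fell in JVM2 and 13 in EHEB. The shares of all genes were 27.6% higher and 27.4% lower in MEC1, 22.6% lower in JVM2 and 18.2% lower in EHEB. NDUFB3, an accessory subunit of the membrane arm, was at 34.9, 29.8 and 39.2 CPM with DMSO in MEC1 and 79.1, 67.0 and 84.7 with idelalisib, and at 37.5, 34.1 and 39.1 and 25.6, 23.4 and 20.8 in EHEB. Neither pair of groups overlapped, and the log2 fold changes were 1.21 ± 0.12 (SE, edgeR adjusted p = 6.72e-06) and -0.67 ± 0.087 (SE, edgeR adjusted p = 1.37e-04). NDUFA1, a small X-linked subunit needed for assembly, was at 51.9, 48.6 and 56.5 CPM with DMSO and 73.2, 69.2 and 81.4 with idelalisib in MEC1 and at 54.0, 57.2 and 55.6 and 32.6, 38.8 and 32.0 in JVM2, with log2 fold changes of 0.57 ± 0.085 (SE, edgeR adjusted p = 1.56e-04) and -0.70 ± 0.10 (SE, edgeR adjusted p = 1.84e-04). NDUFA2 showed the widest difference between lines, with log2 fold changes of 1.298 ± 0.34 (SE, edgeR adjusted p = 0.00742) in MEC1 and -1.40 ± 0.23 (SE, edgeR adjusted p = 6.94e-04) in EHEB and a difference of 2.63 ± 0.43 (SE, edgeR adjusted p = 1.30e-05). NDUFA2 lies on chromosome 5 at 140638740 to 140647771 (GRCh38, minus strand), overlaps IK and TMCO6 on the other strand, and strand in counting is not stated, so their reads cannot be told apart. NDUFB3 likewise overlaps HYCC2, NDUFB2 overlaps BRAF, NDUFB6 overlaps SMIM27, NDUFC1 overlaps NAA15, NDUFB9 overlaps MTSS1 and TATDN1, UQCRQ overlaps GDF9, UQCRB overlaps UQCRB-AS1, NDUFV1 overlaps NDUFV1-DT and NDUFV2 overlaps NDUFV2-AS1 on the other strand. On their own strand, NDUFB2 overlaps ADCK2, NDUFC1 overlaps MGARP and NDUFS3 overlaps PTPMT1. These are examples, as 19 members overlap a named gene on the other strand and 11 on the same strand.

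Among the core subunits of complex I, NDUFV1, the flavoprotein that oxidises NADH, fell in MEC1 with -0.81 ± 0.14 (SE, edgeR adjusted p = 5.93e-04), and so did NDUFS7, the iron-sulphur protein next to the quinone site, with -0.57 ± 0.083 (SE, edgeR adjusted p = 1.37e-04), whereas NDUFS3 and NDUFV2 rose.

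In complex III, 4 of 9 subunits rose in MEC1 with idelalisib and 1 fell, whereas 7 fell in JVM2 and 7 in EHEB. The shares of all genes were 27.6% higher and 27.4% lower in MEC1, 22.6% lower in JVM2 and 18.2% lower in EHEB. The line contrast between MEC1 and JVM2 was called for 7 subunits, against 32.3% of all genes. UQCRFS1, the Rieske iron-sulphur protein, was at 119, 124 and 125 CPM with DMSO and 74.9, 73.7 and 70.7 with idelalisib in JVM2, with a log2 fold change of -0.75 ± 0.061 (SE, edgeR adjusted p = 3.13e-06), and its log2 fold change was -0.31 ± 0.054 (SE, edgeR adjusted p = 0.00106) in EHEB. In MEC1 it was -0.051 ± 0.057 (SE, edgeR adjusted p = 0.47), which passed only with library totals. CYC1 fell in JVM2 with -0.50 ± 0.12 (SE, edgeR adjusted p = 0.00578), and its value of -0.18 ± 0.12 (SE, edgeR adjusted p = 0.288) in EHEB did not pass. Its value of -0.31 ± 0.13 (SE, edgeR adjusted p = 0.0576) in MEC1 did not pass either, but did in DESeq2, in the joint fit, with library totals and without DMSO library 2 or 3, with log2 fold changes between -0.41 and -0.31. UQCRB, which binds near the quinone, rose in MEC1 with 0.50 and fell in JVM2 with -0.49 on the log2 scale. UQCRC1 fell in MEC1 with -0.63 ± 0.056 (SE, edgeR adjusted p = 2.79e-06) and in JVM2 with -0.51 ± 0.067 (SE, edgeR adjusted p = 1.07e-04).

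In complex II, SDHA fell with both kinase inhibitors in MEC1 and SDHC rose there with idelalisib. SDHA, the flavoprotein that oxidises succinate, was at 168, 164 and 158 CPM in MEC1 with DMSO, 144.1, 141 and 138 with fludarabine, 84.6, 72.6 and 81.7 with ibrutinib and 66.0, 71.8 and 61.8 with idelalisib. Both kinase inhibitors lay well below DMSO without overlap, at -0.99 ± 0.065 (SE, edgeR adjusted p = 5.76e-07) and -1.23 ± 0.065 (SE, edgeR adjusted p = 8.75e-08) on the log2 scale. SDHC, a membrane anchor, instead rose with idelalisib in MEC1 from 77.3, 79.5 and 75.1 to 114, 104 and 117 CPM, with 0.59 ± 0.15 (SE, edgeR adjusted p = 0.00696). SDHB, the iron-sulphur subunit, had 0.046 ± 0.13 (SE, edgeR adjusted p = 0.784) in MEC1 with idelalisib, which did not pass. SDHD was called higher there with 0.28 ± 0.10 (SE, edgeR adjusted p = 0.0366), but its groups overlapped and the call was lost with library totals, without the filter, in the joint fit, in the fit of the 6 libraries compared, and without any 1 of DMSO libraries 1, 2 and 3 and idelalisib libraries 2 and 3, with log2 fold changes between 0.17 and 0.30.

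In JVM2, SDHA was at 165, 158 and 177 CPM with DMSO, 238.7, 241 and 183 with fludarabine and 102, 123 and 121 with idelalisib. It rose with fludarabine (0.42 ± 0.10 SE, edgeR adjusted p = 0.00576) and fell with idelalisib (-0.54 ± 0.10 SE, edgeR adjusted p = 0.00141). In EHEB it rose with fludarabine (0.28 ± 0.054 SE, edgeR adjusted p = 0.00155) and fell with ibrutinib (-0.38 ± 0.054 SE, edgeR adjusted p = 5.83e-04) and idelalisib (-0.29 ± 0.054 SE, edgeR adjusted p = 0.00172). The fludarabine effect on SDHA differed between lines, being lower in MEC1, with a difference of -0.62 ± 0.12 (SE, edgeR adjusted p = 1.44e-04) against JVM2 and -0.48 ± 0.12 (SE, edgeR adjusted p = 0.00187) against EHEB. With fludarabine the direction of SDHA in MEC1 depended on scaling. The fall there (-0.24 ± 0.064 SE, edgeR adjusted p = 0.00944) was not called under the stricter filter (edgeR adjusted p = 0.0529), and its direction turned with scaling by library totals (log2 fold change 0.0054). SDHA has near copies in the genome, and its 3 pseudogene entries held 5.28% to 23.3% of the counts summed over SDHA and those entries in a library. Adding them left the calls of SDHA with both kinase inhibitors against DMSO in MEC1 in place.

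Idelalisib and ibrutinib, whose libraries lie in the same number series, were also compared with each other. In MEC1, 11 members were higher with idelalisib and 4 lower, against 6.01% and 9.37% of all genes. In JVM2 no member was higher and 23 were lower, against 8.21% and 10.5%, and in EHEB none was higher and 16 were lower, against 6.77% and 9.09%. At an unadjusted p under 0.05, 1 member was higher in JVM2 and none in EHEB, and DESeq2 called none in either. The count of 16 in EHEB became 9 without idelalisib library 3, and it became 10 without ibrutinib library 3 or idelalisib library 2. In MEC1 the balance depended on scaling, with 6 higher and 9 lower and a median of 0.00 when libraries were scaled by their totals, against a median of -0.17 for all genes. The members higher in MEC1 also became 4 without ibrutinib library 1. They became 7 without idelalisib library 1, and they became 5 without idelalisib library 3. Those lower became 1 or 2 without any 1 of these libraries, or without ibrutinib library 3. NDUFA4 was higher with idelalisib in MEC1 (0.56 ± 0.10 SE, edgeR adjusted p = 0.00387) and lower in EHEB (-0.32 ± 0.06 SE, edgeR adjusted p = 0.00397). UQCRFS1 and NDUFA1 were lower in JVM2 with -0.44 and -0.46, and NDUFB3 and UQCRQ in EHEB with -0.57 and -0.64 on the log2 scale. NDUFS1, the largest iron-sulphur subunit of complex I, was lower in MEC1 with -0.35.

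**Figure D3:**
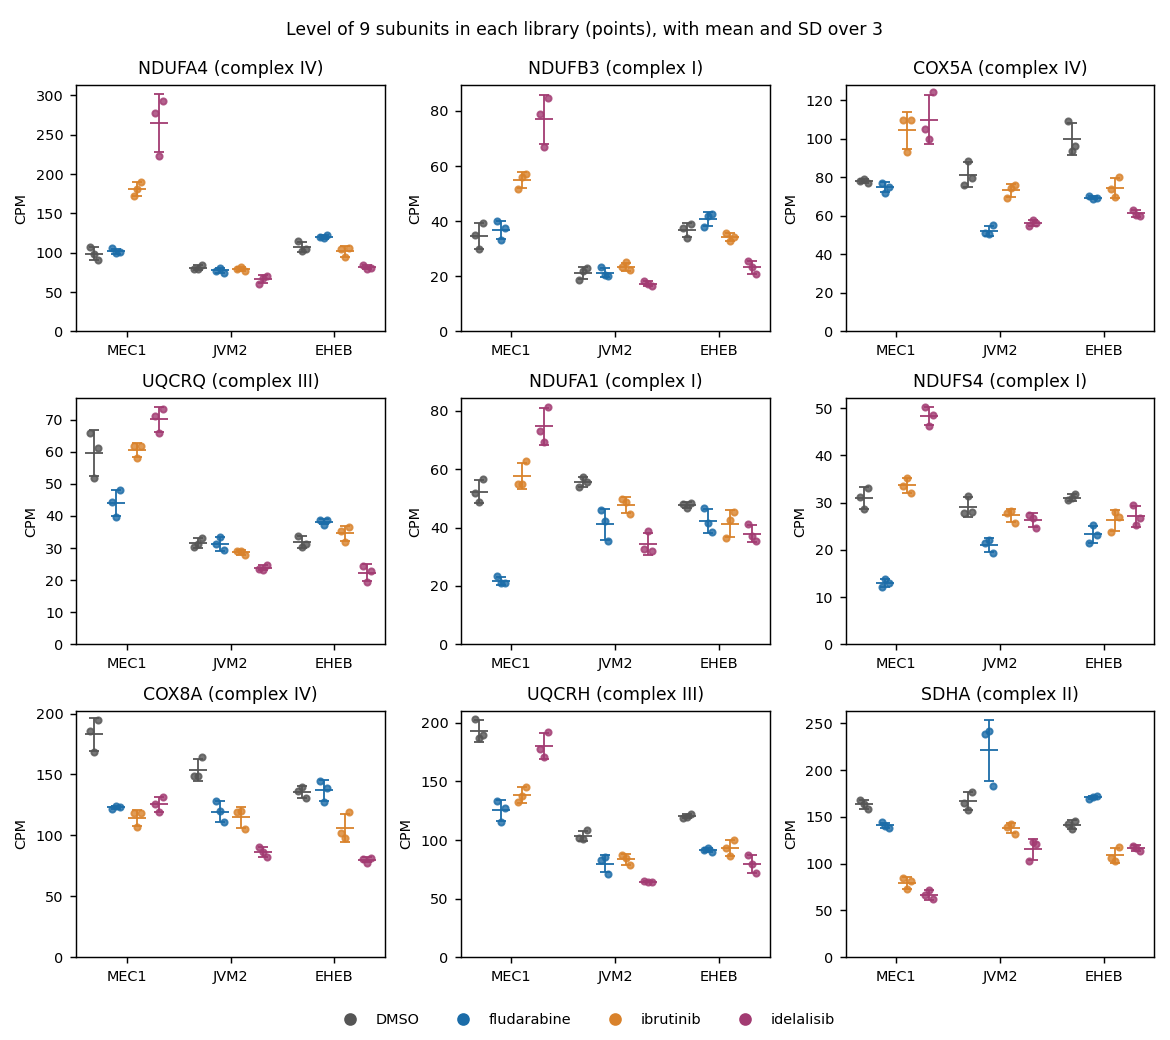
CPM of 9 subunits in each library (points), with the mean (horizontal dash) and SD (whiskers) of the 3 libraries of a group, by line and treatment on axes that start at 0. NDUFA4, NDUFB3 and COX5A with idelalisib lie above DMSO in MEC1 and below it in JVM2 and EHEB, NDUFA1 and NDUFS4 drop with fludarabine in MEC1, and SDHA drops with both kinase inhibitors in MEC1.

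With fludarabine more members fell than rose in MEC1 and JVM2, a balance that library totals evened out in MEC1 and turned in JVM2. In MEC1, 3 members rose and 26 fell, against 21.2% and 22.7% of all genes, with a median log2 fold change of -0.24 against 0.06 for all genes, but scaling by library totals gave 12 higher and 12 lower and a median of 0.01 beside 0.31 for all genes. In JVM2, 5 rose and 18 fell, against 23.9% and 23.3%, with a median of -0.08 against 0.06, and library totals turned this to 19 higher and 10 lower and a median of 0.12 beside 0.26 for all genes. In EHEB, 9 rose and 4 fell, against 18.4% and 19.2%, with a median of 0.08 against 0.02, and the 9 became 21 with library totals and 15 under the stricter filter, which also gave 7 higher in MEC1 and 10 in JVM2. Without DMSO library 1 or 2, 1 member rose in MEC1 in place of 3. The fludarabine effect differed between MEC1 and EHEB for 25 members, 24 of them with the smaller value in MEC1, against 27.7% of all genes, between MEC1 and JVM2 for 18, against 23.6%, and between EHEB and JVM2 for 8, against 20.8%.

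NDUFS4 and NDUFA1 of complex I had the largest falls with fludarabine in MEC1. NDUFS4, an accessory subunit whose loss causes Leigh syndrome, was at 31.2, 28.6 and 33.2 CPM with DMSO and 12.04, 13.7 and 12.9 with fludarabine in MEC1, a log2 difference of -1.29 ± 0.086 (SE, edgeR adjusted p = 7.42e-07). It also fell in JVM2 (-0.46 ± 0.078 SE, edgeR adjusted p = 5.84e-04) and EHEB (-0.40 ± 0.089 SE, edgeR adjusted p = 0.00402). NDUFA1 was at 23.4, 21.1 and 20.9 CPM with fludarabine in MEC1, below every DMSO library, with -1.29 ± 0.087 (SE, edgeR adjusted p = 8.15e-07). NDUFA13 fell in MEC1 with -0.94 ± 0.28 (SE, edgeR adjusted p = 0.0175), a call lost with library totals, in the fit of only the 6 libraries compared and without fludarabine library 3 (log2 fold changes between -0.95 and -0.69), and the gene shares its strand with the overlapping YJEFN3. COX5A fell in JVM2 and EHEB with -0.63 and -0.51 on the log2 scale, and NDUFV1 and NDUFC1 fell in JVM2 with -0.65 and -0.54.

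NDUFV3, a small flavoprotein-arm subunit, rose with fludarabine in all 3 lines, with 0.26 ± 0.07 (SE, edgeR adjusted p = 0.011) in MEC1, 0.37 ± 0.081 (SE, edgeR adjusted p = 0.0029) in JVM2 and 0.80 ± 0.10 (SE, edgeR adjusted p = 9.25e-05) in EHEB. NDUFA12, an accessory subunit of the peripheral arm, was at 19.0, 20.7 and 19.6 CPM with DMSO and 52.7, 50.9 and 28.4 with fludarabine in EHEB, a rise of 1.17 ± 0.29 (SE, edgeR adjusted p = 0.00813) in which library 3 lay well below the other drug libraries. NDUFA6 rose in EHEB with 0.60 and NDUFB2 in JVM2 with 0.41 on the log2 scale. The rise of NDUFA12 in MEC1 (0.70) passed the test but was lost in limma-voom, in the joint and the 6-library fits, without the filter, and without any 1 of DMSO libraries 1, 2 and 3 and fludarabine library 1, the last of which left 0.32. The rise of NDUFB1 in MEC1 (0.28) was lost in the 6-library fit, without the filter, and without any 1 of DMSO libraries 1, 2 and 3 and fludarabine libraries 2 and 3, with log2 fold changes between 0.21 and 0.31.

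Ibrutinib called fewer members than idelalisib in every line. In MEC1, 12 rose and 6 fell, against 23.7% and 23.9% of all genes, with a median of 0.14 against 0.06, and the 12 became 20 with library totals and 21 under the stricter filter. In JVM2, 4 rose and 8 fell, against 14.5% and 15%, and in EHEB 1 rose and 5 fell, against 8.5% and 11.2%, with medians of -0.07 and -0.06 against 0.00 and 0.01 for all genes, and these became 0.01 and 0.03 when libraries were scaled by their totals, which also gave 4 higher in EHEB. The ibrutinib effect differed between MEC1 and JVM2 for 10 members, against 24.8% of all genes, between MEC1 and EHEB for 13, against 25.2%, and between EHEB and JVM2 for 4, against 11.6%. NDUFA4 rose with ibrutinib in MEC1 to 173, 180.5 and 190.6 CPM, with 0.92 ± 0.10 (SE, edgeR adjusted p = 1.74e-05), and NDUFB3 to 51.6, 56.2 and 57.3 CPM, with 0.71 ± 0.12 (SE, edgeR adjusted p = 4.91e-04). NDUFB1 rose there too (0.54), and NDUFV1 fell (-0.70). NDUFA6 rose in JVM2 with 0.47. UQCRB fell in JVM2 with -0.47 and COX5A in EHEB with -0.42 on the log2 scale. The largest rise in JVM2, of NDUFA13 (0.96 ± 0.30 SE, edgeR adjusted p = 0.0344), was lost in limma-voom (adjusted p = 0.075), in the fit of 6 libraries (edgeR adjusted p = 0.0501) and without any 1 of DMSO libraries 1, 2 and 3 and ibrutinib libraries 1 and 2, with log2 fold changes between 0.70 and 1.03. The members that rose in JVM2 became 2 without DMSO library 2 or 3 or ibrutinib library 2. The 1 member that rose in EHEB was NDUFA6 (0.43), a call lost in the fit of 6 libraries and without any 1 of DMSO libraries 1 and 3 and ibrutinib libraries 1 and 3, with log2 fold changes between 0.36 and 0.45. The 4 members between EHEB and JVM2 became 1 or 2 without any 1 of DMSO libraries 1, 2 and 3 and ibrutinib library 3 of EHEB and DMSO library 3 and ibrutinib libraries 2 and 3 of JVM2.

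Among the members, COX8A and UQCRH were called lower most often, each in 8 of 9 comparisons. The share of all genes called lower that often was not counted. In single comparisons, 11.2% to 27.4% of all genes tested were called lower. COX8A was at 185.5, 168 and 195 CPM in MEC1 with DMSO, 122, 124 and 124 with fludarabine, 118, 107 and 118 with ibrutinib and 125, 119 and 131 with idelalisib. In JVM2 its levels in that order were 149, 149 and 164, then 128, 119.6 and 111, then 119.6, 119.9 and 105 and finally 90.6, 86.4 and 82.6 CPM. Every drug library of both lines lay below every DMSO library of its line. The log2 fold changes ran from -0.84 ± 0.072 (SE, edgeR adjusted p = 5.12e-06) in JVM2 with idelalisib to -0.35 ± 0.075 (SE, edgeR adjusted p = 0.00718) in EHEB with ibrutinib, and the exception was fludarabine in EHEB, with 0.026 ± 0.075 (SE, edgeR adjusted p = 0.827).

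UQCRH was at 101, 101 and 108 CPM in JVM2 with DMSO and 64.8, 64.0 and 64.3 with idelalisib, and at 119, 119.8 and 122 and 86.9, 79.3 and 72.2 in EHEB. These falls had log2 fold changes of -0.69 ± 0.067 (SE, edgeR adjusted p = 1.28e-05) and -0.61 ± 0.072 (SE, edgeR adjusted p = 7.46e-05), and the largest with fludarabine was -0.65 ± 0.072 (SE, edgeR adjusted p = 2.64e-05) in MEC1. The exception was idelalisib in MEC1, with 177, 171 and 193 CPM beside 203, 187 and 189 in DMSO and a log2 fold change of -0.038 ± 0.072 (SE, edgeR adjusted p = 0.677). The line contrast of idelalisib for UQCRH was 0.59 ± 0.10 (SE, edgeR adjusted p = 2.85e-05) between MEC1 and JVM2.

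Promoters of members were searched for motifs of 3 factors known to act on respiratory genes, on both strands and with exact letters. The windows run from 250 bases before to 50 bases after the start site in RefSeq (GRCh38.p14), and 50 of the 60 members matched the table. The NRF1 motif GCGCATGCG was in 6 of the 50 (12%) and in 1.92% of all 35116 windows, coding and non-coding genes together. The ETS motif CCGGAAG was in 15 (30%) and in 10.3%, and the YY1 motif AAGATGGC in 8 (16%) and in 2.89%. At least 1 of the 3 was in 25 of the 50 windows (50%) and in 14.02% of all, and no member had matches of different motifs that shared bases. The 100 bases before the start site are shown for COX8A and UQCRH, which fell in 8 of 9 comparisons, and for NDUFA1 and UQCRQ, which were called in opposite directions with idelalisib in MEC1 and JVM2. Capitals mark the ETS motif on either strand, and the 4 were picked among members that hold it in this stretch. The windows are COX8A at chr11:63974520-63974619, UQCRH at chr1:46303598-46303697, NDUFA1 at chrX:119871732-119871831 and UQCRQ at chr5:132866542-132866641, all on the plus strand.
COX8A: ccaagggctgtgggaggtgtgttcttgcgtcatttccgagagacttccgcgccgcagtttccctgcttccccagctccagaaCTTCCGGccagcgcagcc
UQCRH: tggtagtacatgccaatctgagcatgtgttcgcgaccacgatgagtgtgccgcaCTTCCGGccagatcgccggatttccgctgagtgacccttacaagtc
NDUFA1: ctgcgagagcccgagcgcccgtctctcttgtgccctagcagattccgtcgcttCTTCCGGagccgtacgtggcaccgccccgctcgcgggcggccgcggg
UQCRQ: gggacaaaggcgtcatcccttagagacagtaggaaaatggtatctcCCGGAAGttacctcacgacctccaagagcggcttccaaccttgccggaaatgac

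Summed over the subunits of a complex, the levels of complexes I and IV with idelalisib were higher in MEC1 and lower in the other lines. Those of complexes II and III with idelalisib were lower in all 3. Complex IV with ibrutinib was also higher in MEC1 without overlap, at a mean of 1168 CPM. Its means with ibrutinib lay below DMSO in JVM2 (1000 against 1119 CPM) and EHEB (934 against 1015 CPM), with overlap. With idelalisib in MEC1, complex IV rose from 1062 ± 44.8 to 1425 ± 125 CPM and complex I from 1477 ± 119.6 to 1739.7 ± 76.4 CPM without overlap, while complex II went from 345 ± 7.77 to 290.4 ± 7.15 CPM and complex III from 1023 ± 49.9 to 938 ± 44.9 CPM (SD, n = 3), both lower without overlap, though complex III overlapped with DESeq2 size factors. Among single genes there, the mean of SDHA went from 163 to 66.5 CPM, UQCRC1 from 187 to 115 and NDUFA4 from 98.7 to 265. More subunits of complexes II and III were called higher than lower there, 2 against 1 and 4 against 1. Of all genes, 27.6% were called higher there and 27.4% lower. In JVM2 all 4 complexes were lower with idelalisib without overlap, except complex I with library totals, complex III going from 931 ± 42.1 to 664 ± 6.37 CPM. In EHEB all 4 were lower too, without overlap except complex II with library totals, complex III going from 825 ± 10.7 to 689 ± 5.14 CPM. With fludarabine in EHEB, complex II was higher without overlap, at 461 ± 22.4 CPM against 399.5 ± 22.2 with DMSO. These sums were not tested.

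**Figure D4:**
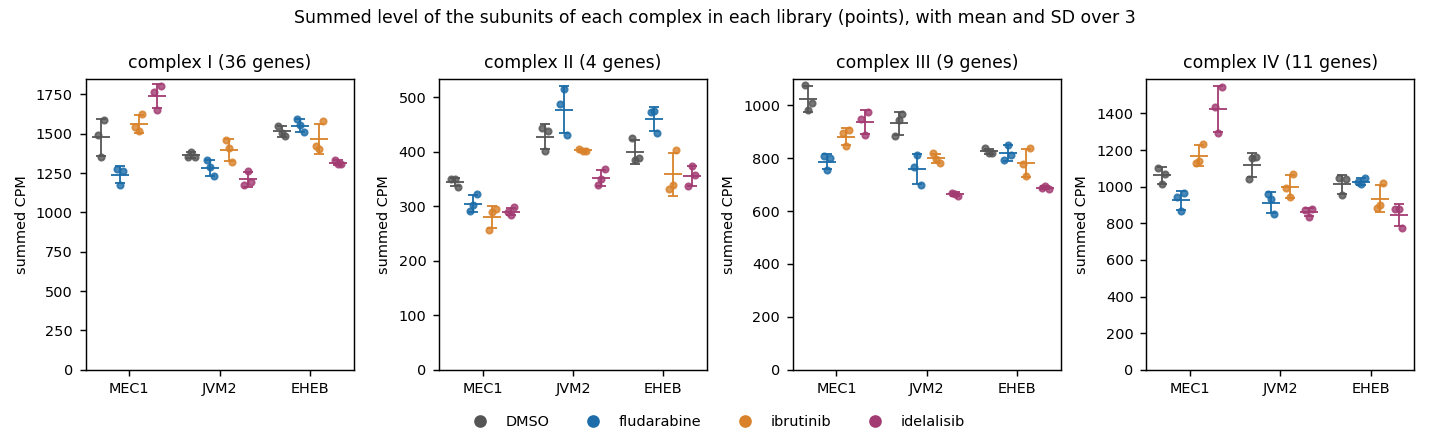
Summed CPM of the subunits of complexes I (36 genes), II (4), III (9) and IV (11) in each library (points), with the mean (horizontal dash) and SD (whiskers) over 3, by line and treatment on axes that start at 0. With idelalisib, the means of complexes I and IV lie above DMSO in MEC1 and below it in JVM2 and EHEB, and those of complexes II and III lie below DMSO in all 3 lines.

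Most subunits encoded by mitochondrial DNA rose with every drug. All 13 rose with fludarabine in JVM2 and EHEB, with ibrutinib in JVM2 and with idelalisib in MEC1 and JVM2, and 9 to 12 of them rose in the other 4 comparisons, with list medians between 0.69 and 1.19 on the log2 scale and none called lower in any of the 9. Of all genes tested, 8.5% to 27.6% were called higher, depending on the comparison. With idelalisib in EHEB 9 of the 13 were called higher, and the lowest log2 fold change of the list was -0.11. MT-CYB, the mitochondrial subunit of complex III, rose with idelalisib from 165 ± 7.70 to 502 ± 50.6 CPM in JVM2 (SD, n = 3), with 1.60 ± 0.14 (SE, edgeR adjusted p = 5.76e-06), where 7 of 9 nuclear subunits of complex III fell, against 22.6% of all genes. The largest rises of this list were MT-ATP8 and MT-ND3 with idelalisib in MEC1, with 1.87 ± 0.23 (SE, edgeR adjusted p = 3.35e-05) and 1.77 ± 0.22 (SE, edgeR adjusted p = 3.88e-05). Copies of mitochondrial DNA in the nuclear genome share sequence with these genes, and how such reads were counted is not stated.

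The 18 listed genes of ATP synthase, which uses the proton gradient, had 13 higher and 1 lower in MEC1, 8 lower in JVM2 and 9 lower in EHEB with idelalisib, and medians of 0.50, -0.33 and -0.26. They are its subunits and its inhibitory factor, which is not a subunit. The 47 assembly factors, which build the complexes, counted 22 higher and 5 lower for MEC1, 9 higher and 15 lower for JVM2 and 3 higher and 5 lower for EHEB. Beside these stand the shares of all genes higher and lower with idelalisib, which were 27.6% and 27.4% for MEC1, 21.6% and 22.6% for JVM2, and 15.1% and 18.2% for EHEB. The 13 enzymes of the tricarboxylic acid cycle, which feeds the chain, had 1 higher and 10 lower in MEC1 with a median of -0.60, 1 higher and 8 lower in JVM2 and none higher and 7 lower in EHEB. CS, the citrate synthase that opens the cycle, fell with idelalisib in MEC1 with -1.05 ± 0.10 (SE, edgeR adjusted p = 7.12e-06). With fludarabine, the cycle enzymes had 1 higher and 9 lower in MEC1 and 1 higher and 7 lower in JVM2, and ATP synthase 4 higher and 9 lower and 1 higher and 8 lower. In EHEB with fludarabine, no cycle enzyme was higher and 1 was lower, with a median of -0.04, and 1 gene of ATP synthase was higher and none lower, with a median of 0.02. The shares of all genes higher and lower with fludarabine were 21.2% and 22.7% for MEC1, 23.9% and 23.3% for JVM2, and 18.4% and 19.2% for EHEB.

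**Figure D5:**
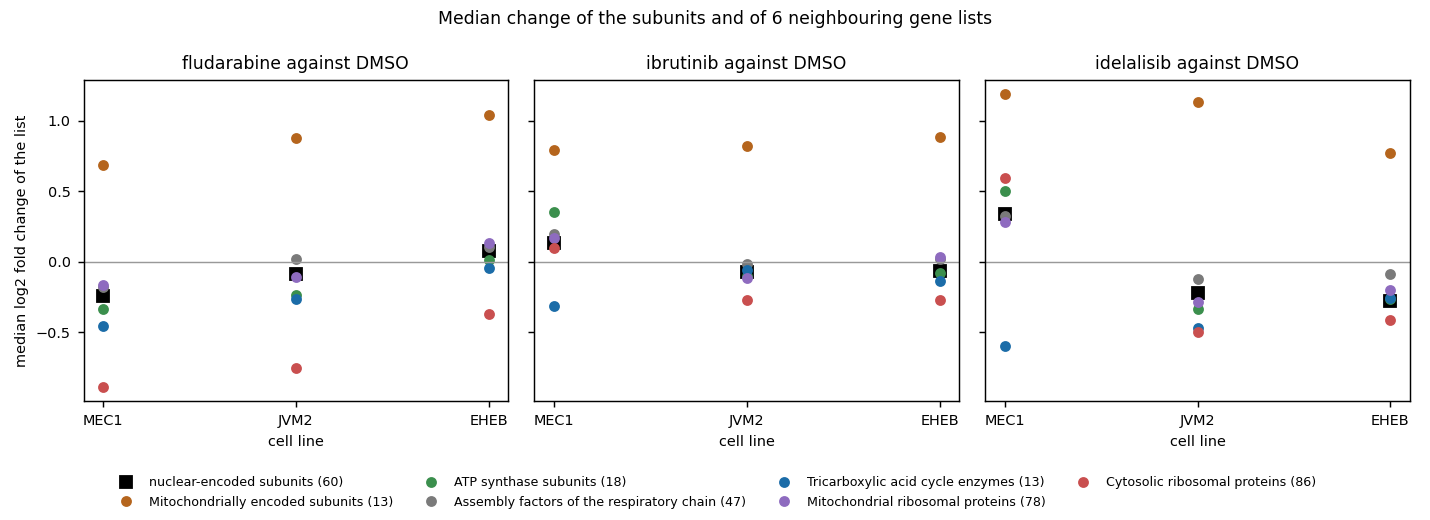
Median log2 fold change against DMSO of the 60 nuclear-encoded subunits (black squares) and of 6 other gene lists (coloured points, list size in the key) in each line, 1 panel per drug, with TMM scaling. The mitochondrially encoded subunits lie between 0.69 and 1.19 throughout, and with idelalisib the nuclear-encoded subunits lie at 0.34 for MEC1, -0.22 for JVM2 and -0.28 for EHEB; with library totals the fludarabine medians of the nuclear-encoded subunits in MEC1 and JVM2 turn to 0.01 and 0.12.

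Ribosomal protein genes, which like most members are short and abundant, were also followed under idelalisib. Of the cytosolic ribosomal protein genes, 61 of 84 tested rose and 2 fell in MEC1, none of 83 rose and 70 fell in JVM2, and 1 of 82 rose and 65 fell in EHEB. Of 78 mitochondrial ones, 39 rose and 10 fell in MEC1, 3 rose and 35 fell in JVM2, and 2 rose and 17 fell in EHEB. Of all genes tested, 27.6% rose and 27.4% fell in MEC1, 21.6% and 22.6% in JVM2, and 15.1% and 18.2% in EHEB. Over the protein-coding genes tested, medians with idelalisib differed with transcript length. Those of the members had the same sign in both length classes of each line. Protein-coding genes with a canonical transcript under 1000 nt had median log2 fold changes with idelalisib of 0.33 for MEC1, -0.21 for JVM2 and -0.18 for EHEB, against -0.09, 0.02 and 0.00 for longer ones. The 35 members under 1000 nt had medians of 0.35, -0.21 and -0.30, and the 25 longer members 0.30, -0.28 and -0.18. The part of length in the result was not tested.

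The nuclear regulators of the chain were a list of 16 genes, of which 15 were tested in JVM2. With idelalisib MEC1 had 6 higher and 5 lower, JVM2 2 higher and 3 lower, and EHEB 3 higher and 2 lower. The shares of all genes higher and lower were 27.6% and 27.4%, 21.6% and 22.6%, and 15.1% and 18.2% in the same order of lines. TFB2M, a mitochondrial transcription factor, rose in MEC1 with 1.06 ± 0.10 (SE, edgeR adjusted p = 6.53e-06), and POLRMT, the mitochondrial RNA polymerase, fell there with -0.79 ± 0.079 (SE, edgeR adjusted p = 7.14e-06). Of 11 isoforms and partners outside the symbol rule, 7 could be tested. NDUFA4L2, the paralog of NDUFA4, rose with idelalisib in JVM2 with 1.20 ± 0.29 (SE, edgeR adjusted p = 0.00622), from 1.15 ± 0.435 to 2.67 ± 0.264 CPM. It fell with ibrutinib in MEC1 with -1.37 ± 0.34 (SE, edgeR adjusted p = 0.00579), from 1.60 ± 0.168 to 0.595 ± 0.0632 CPM. Both changes were at low levels.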

How the data were processed

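RNA of 36 libraries was sequenced after rRNA depletion, and the authors deposited 1 table of raw read counts per gene symbol. Per the submitters' processing notes, Trimmomatic, HISAT2 2.1, StringTie 1.3.4 and edgeR 3.22.5 were used with hg38, while for the Ensembl release, the strand setting and the step to gene symbols nothing is stated in the labels or methods read. Reads shared with overlapping genes or pseudogenes may therefore have been split.

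Groups were taken from the sample labels. The row without a symbol (0.00384% of counts) was left out. Counts of library pairs within a group differed beyond sampling noise (chi-square per degree of freedom 24.9 to 48.9, 36 pairs). Genes were filtered with filterByExpr (minimum count 10, minimum total 15) and scaled by TMM (factors 0.888 to 1.17). Tests were edgeR 4.0.16 quasi-likelihood fits over the 12 libraries of a line, the 9 DMSO libraries, or all 36 for the difference of effects between lines, with adjustment over all genes tested. CPM levels came from TMM over all 36. The scripts were tested on simulated data. Alternatives were DESeq2 1.42.0, limma-voom (limma 3.58.1), other scalings, filters and libraries in the fit, merged exon lengths, added pseudogene counts, and each library left out.

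The members and lists were chosen with earlier results of these data known. Names were drawn, for each comparison, from up to 3 members with the largest rise and fall among those called without overlap. Further sources were those called the same way in 7 or more of 9 drug comparisons, the SDH genes, UQCRFS1 and CYC1, and the members highest and lowest per kilobase in DMSO. From each other list they were those called the same way in 7 or more and the 2 largest changes each way. Not all genes that met these rules are given, and from the other lists only a part. Another 23 results on named members were added after their values were seen. Results of 1 member are not reported here. Gene positions and lengths are from GENCODE v44. Library totals (26590705 to 53538925 counts) gave at least 127 counts to each member in each library. Whether library size or spread limits a call was not tested.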

Additional observations from a re-analysis of the deposited data

Results flagged for a closer look

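The effect of a drug on members differed between lines by the test of the difference itself (edgeR adjusted p under 0.05). With idelalisib this held for 38 members between MEC1 and JVM2, 33 between MEC1 and EHEB and 7 between EHEB and JVM2, against 32.3%, 35.3% and 19.2% of all genes. For the same pairs of lines, the numbers with fludarabine were 18, 25 and 8, against 23.6%, 27.7% and 20.8%, and with ibrutinib 10, 13 and 4, against 24.8%, 25.2% and 11.6%. In none of these can the line be told apart from its time of exposure.

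Members called in opposite directions in a pair of lines are given as the difference of their log2 fold changes. For idelalisib, MEC1 against JVM2, complex IV gave COX5A at 1.03, COX7C at 0.90 and NDUFA4 at 1.71. Complex I gave NDUFA1 at 1.20, NDUFB1 at 1.33, NDUFB3 at 1.45 and NDUFB5 at 1.20, and complex III gave UQCRB at 0.93 and UQCRQ at 0.64.

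For idelalisib, MEC1 against EHEB, complex IV gave COX5A at 1.20 and NDUFA4 at 1.81. The accessory subunits of complex I gave NDUFA1 at 0.85, NDUFA2 at 2.63, NDUFA9 at 0.89, NDUFB1 at 1.20, NDUFB2 at 1.13, NDUFB3 at 1.82 and NDUFB6 at 1.25, and the core subunit NDUFV2 was at 0.96. Complex III gave UQCR10 at 0.75, UQCR11 at 0.64 and UQCRQ at 0.75.

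With fludarabine the differences ran the other way, with SDHA at -0.62 for MEC1 against JVM2 and -0.48 against EHEB, and UQCRQ at -0.69 against EHEB. With ibrutinib, COX5A was at 0.84 for MEC1 against EHEB. The fall of SDHA with fludarabine in MEC1 depends on the scaling of libraries.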

How the results depend on the processing

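No paired analysis was possible because the groups share no replicate numbers. Apart from left-out libraries, 301 of 336 counts of called members stayed within 1.5 times their value, and 120 of 132 medians moved by less than the spread between libraries. Of the single results on named members under those alternatives, 1918 kept direction and side of the threshold, 41 lost the call, 26 gained one and 1 turned, which was SDHA with fludarabine in MEC1 at 0.0054 with library totals. The cause was not tested for any of these.

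With library totals, members higher with fludarabine numbered 12 for MEC1, 19 for JVM2 and 21 for EHEB, and those lower 12 for MEC1 and 10 for JVM2. Higher with ibrutinib were 20 in MEC1 and 4 in EHEB, higher with idelalisib 3 in JVM2 and 2 in EHEB, and lower with idelalisib 11 in MEC1. Idelalisib against ibrutinib in MEC1 gave 6 higher and 9 lower. The stricter filter gave 7, 10 and 15 higher with fludarabine in MEC1, JVM2 and EHEB, 21 and 2 higher with ibrutinib in MEC1 and EHEB, 1 higher with idelalisib in EHEB and 17 higher with idelalisib against ibrutinib in MEC1. It also gave 20 members whose ibrutinib effect differed between MEC1 and JVM2, 7 between EHEB and JVM2, and 11 whose idelalisib effect differed between EHEB and JVM2. Without a filter, 1 was higher with fludarabine in MEC1, 5 in EHEB and 2 lower with idelalisib against ibrutinib in MEC1, and the fludarabine and ibrutinib effects differed between EHEB and JVM2 for 5 and 2. The fit of 6 libraries gave 1 higher with fludarabine in MEC1, 2 higher with ibrutinib in JVM2, and 2 lower in MEC1 and 9 lower in EHEB for idelalisib against ibrutinib. DESeq2 gave 18 higher for idelalisib against ibrutinib in MEC1, 1 higher with idelalisib in JVM2 and 11 members whose idelalisib effect differed between EHEB and JVM2. The joint fit gave 11 lower with idelalisib in MEC1.

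With 1 library left out at a time, the members higher with fludarabine in MEC1 ranged from 1 to 3, those higher with ibrutinib from 2 to 5 in JVM2 and 0 to 2 in EHEB, and those higher with idelalisib from 0 to 1 in JVM2 and 0 to 1 in EHEB. For idelalisib against ibrutinib they ranged from 4 to 13 higher and 1 to 4 lower in MEC1 and from 9 to 15 lower in EHEB. Members lower in EHEB than in JVM2 in DMSO ranged from 7 to 12, and those whose ibrutinib effect differed between EHEB and JVM2 from 1 to 4. These fits of differences between lines kept the genes and the dispersion trend of the full joint fit.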

Other observations

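The catalytic subunits of complexes II and III had further values. UQCRFS1, the Rieske protein, fell with fludarabine in MEC1 (-0.52 ± 0.057 SE, edgeR adjusted p = 2.63e-05) and with ibrutinib in JVM2 (-0.32 ± 0.06 SE, edgeR adjusted p = 0.00256), and its fall with fludarabine in JVM2 (-0.30) was lost with library totals, at -0.10. In DMSO it was higher in MEC1 than in EHEB by 0.32 and lower in EHEB than in JVM2 by -0.41 on the log2 scale. CYC1 with fludarabine gave -0.34 ± 0.13 (SE, edgeR adjusted p = 0.0531) in MEC1, which did not pass.

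SDHC was lower in MEC1 than in JVM2 in DMSO (-0.57 ± 0.11 SE, edgeR adjusted p = 0.00139) and than in EHEB (-0.55 ± 0.11 SE, edgeR adjusted p = 0.00174). SDHD was also lower in MEC1 than in EHEB (-0.81), a call lost without DMSO library 1 of EHEB, at -0.56. SDHB was higher with fludarabine in EHEB (0.35), a call lost without the filter, in the fit of 6 libraries and without DMSO library 2 or fludarabine library 2, with log2 fold changes between 0.23 and 0.35.

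Between idelalisib and ibrutinib in MEC1, the accessory subunit NDUFB9 was higher with idelalisib (0.76), a call lost without ibrutinib library 1, at 0.67. For the same pair of drugs, NDUFA2 was lower in EHEB (-0.85 ± 0.23 SE, edgeR adjusted p = 0.0262), a call lost in the joint fit and without any 1 of ibrutinib libraries 1 and 2 and idelalisib libraries 2 and 3, with log2 fold changes between -0.84 and -0.70. NDUFV1 was lower in JVM2 (-0.50 ± 0.15 SE, edgeR adjusted p = 0.0405), a call lost without the filter and without any 1 of the 6 libraries, with log2 fold changes between -0.56 and -0.42.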
